A study of Caenorhabditis elegans with 12 samples.

Results

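Germ lines that lacked both MES-2 and MES-4 were compared with germ lines that lacked MES-4 alone, in adult Caenorhabditis elegans grown at 20 °C. The comparison used 8 of the 12 two-colour arrays of the series, 4 labelled mes-2; mes-4 and 4 labelled mes-4, and subtracted the mean log2 ratio of the mes-4 arrays from that of the double mutant arrays, with dye orientation as a term of the fit. The double mutant was strain SS0965 set against unc-4(e120) on each array, and the mes-4 mutant was strain SS0803 set against N2. The remaining 4 arrays held mes-2 mutants, strain SS0186, set against unc-4(e120), and entered the fit only to estimate the spread and the dye effect. The labels give no alleles of the mes genes. All germ lines were dissected by hand, and replicates were harvested independently. Germ lines of single mutants came from adults that held at most a few embryos, whereas for the double mutant those that had proliferated well and made oocytes were picked. The 2 mutant groups therefore differ in mes-2, in the wild type on the array and in how germ lines were picked, and these cannot be told apart in the differences below.

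MES-2 is the catalytic subunit of the Polycomb repressive complex in C. elegans and works with MES-3 and MES-6 to methylate histone H3 on silent chromatin, the X chromosome of the germ line included. MES-4 methylates histone H3 on genes that the germ line has transcribed and is concentrated on the autosomes. Both proteins are supplied by the mother and are needed for the survival of germ cells in her offspring, and X-linked genes are largely silent in wild-type germ cells.

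The deposited values were 1 log ratio per probe and array, read here as log2 of mutant over wild type. The labels state neither the log base nor the direction, so folds rest on base 2 and the direction in mes-4 rests on the labels. An array gave values for 17297 to 21879 of 22490 probes, the fewest on double mutant replicate 3. Values of the same gene were averaged, and 12887 genes with at least 3 of 4 values in each of the 3 groups were tested. Across genes, the arrays correlated at r = 0.158 to 0.693 within the double mutant, -0.0455 to 0.802 within mes-4 and -0.105 to 0.773 between the groups (6, 6 and 16 pairs). Pairs from different groups thus reached correlations as high as some pairs within a group. Within mes-4, pairs of the same dye orientation had 0.356 and 0.802, and pairs of opposite orientation -0.0455 to 0.278. Within the double mutant the orientations overlapped, at 0.359 and 0.583 against 0.158 to 0.693. Between the groups they also overlapped, at 0.0584 to 0.773 against -0.105 to 0.571. The part of dye in these correlations was not tested. After the fit, arrays of different groups still moved together: residuals of mes-4 replicate 3 correlated at 0.59 and 0.641 with replicates 1 and 4 of the double mutant. Within the double mutant, residuals of replicates 1 and 3 correlated at -0.825, and within mes-4 those of replicates 2 and 3 at -0.721. Fitting group and dye terms to 4 arrays per group pushes residuals within a group towards negative correlation. The negative sign within a group is therefore partly built in. Counts of calls and the X share are also given without some of these arrays.

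The mes-2 probe had log2 ratios of -2.70, -2.07, -2.69 and -2.49 in the double mutant, against -0.41, -0.02, -0.66 and 0.25 in mes-4. The groups did not overlap, and the difference was -2.28 (SE 0.283, limma adjusted p = 0.00343), the lowest of all called genes. The mes-4 probe had -0.68, 0.70, 0.40 and -0.55 in the double mutant, against 0.61, 0.82, -0.01 and 1.1 in mes-4. It overlapped between the groups, and its difference of -0.66 did not pass the test (SE 0.337, adjusted p = 0.462). The probe thus did not mark either group as lacking mes-4 RNA, and with the allele not given it does not check the labels. mes-3, which encodes the partner of MES-2, had 0.65, 1.04, 0.80 and 1.13 in the double mutant, against -0.27, -0.39, 0.28 and 0.07 in mes-4. All 4 double mutant arrays lay above the mes-4 arrays, and the difference was 0.98 (SE 0.126, adjusted p = 0.0038). The mean of mes-3 on the mes-2 arrays was 0.465. Neither mrg-1, a chromodomain gene whose product acts with MES-4, nor mes-1, which acts in early embryonic divisions, passed the test, with differences of -0.01 and 0.16 (adjusted p = 0.992 and 0.684).

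In all, 229 of 12887 genes (1.78%) were called between the double mutant and mes-4 at a limma adjusted p under 0.05. Of these, 188 (1.46%) were higher in the double mutant, with a median difference of 1.18, and 41 (0.318%) were lower, with a median of -0.76, while the median over all genes was 0.01. Counts of called genes in the lists and families below stand against these shares of all genes. More than 2-fold differences were found for 124 higher and 15 lower genes. Among the 208 called genes with values on all 8 arrays, 111 of 170 higher and 34 of 38 lower genes had groups that did not overlap, against 2.46% of 11653 genes for higher and 1.33% for lower. Within each dye orientation the groups of all 170 and all 38 were apart, against 7.19% and 4.02% of the 11653 genes. These counts use the same values as the calls and only describe them. Array medians of 36 intestinal marker genes ran from -0.12 to 0.305 in the double mutant and from -0.605 to -0.15 in mes-4. The groups were apart by a narrow gap, -0.12 against -0.15. Of the 43 lists other than leaders from earlier results, no other had array medians apart. Of the 36 genes 0 were called, and their part in the calls was not tested.

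Most genes that rose relative to mes-4 also lay above wild type in the double mutant. A higher call favours a double mutant mean above 0, and a lower call a mean below 0. The counts in this paragraph therefore only describe the calls, and no share over all genes is set beside them. The mean of the double mutant was above 0 for 184 of the 188, and the mean of mes-4 was above 0 as well for 122. For 62 genes mes-4 was below 0 and the double mutant above it, and for 4 both were below. The medians of the 188 genes were 1.53 in the double mutant and 0.30 in mes-4. Among the 41 lower genes both mutants were below 0 for 28, and for 10 the double mutant was below 0 and mes-4 above it. For the other 3, unc-119, rnh-1.3 and F15D4.5, both means were above 0, so that the lower value in the double mutant was the one closer to wild type.

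**Figure D1:**
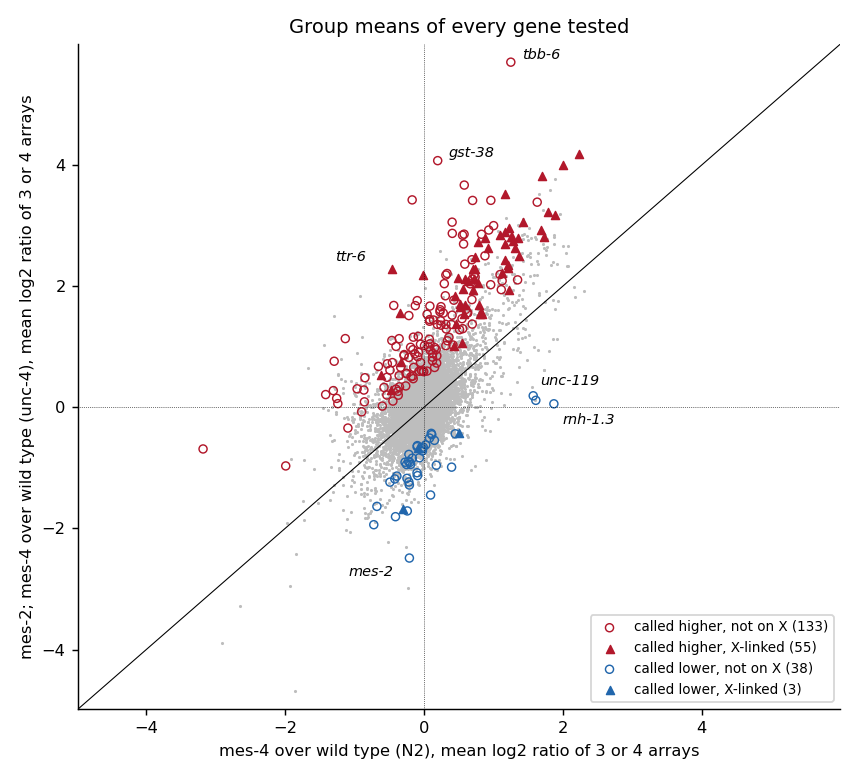
Mean log2 ratio over wild type in the double mutant (vertical axis) against mes-4 (horizontal axis) for each of the 12887 genes tested, with the line of equal values. The 188 genes called higher lie above the line, 122 of them with both means above 0, and filled triangles mark X-linked genes.

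The number of calls depended on single arrays. Without double mutant replicate 4 it was 93, and without mes-4 replicate 1, 2 or 4 it was 81, 75 or 108, while without each of the other arrays it lay between 191 and 258. Lower calls numbered 22 without double mutant replicate 3. Of 47 named called genes, 0 kept their call in all 22 alternatives tried, since fits on a single dye orientation called none, and 17 were called in no more than 50% of those that tested them. These were tbb-6, ttr-6, egl-6, dhhc-10, crn-4 and str-187 among the higher genes, and nkat-1, lin-25, slcr-46.1, nol-56, pid-4, rog-1, npr-28, orc-3, clec-174, clec-3 and srd-4 among the lower. All 47 kept their direction.

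X-linked genes made up 55 of the 188 genes called higher (29.3%), while 13.3% of the genes tested were X-linked. On X 3.23% of genes were called higher, against 0.947% to 1.41% on the 5 autosomes. Only 3 of the 41 lower genes were X-linked. Chromosome IV held 29 higher genes and 1 lower, and chromosome III held 21 and 10. The X share depended on which arrays were used: it was 44.9% of the higher genes without replicates 1 and 4 of the double mutant and replicate 3 of mes-4, 12.4% without double mutant replicates 2 and 3, and 12.9% with array weights. Genes are not independent replicates, and no test was made of these shares.

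**Figure D2:**
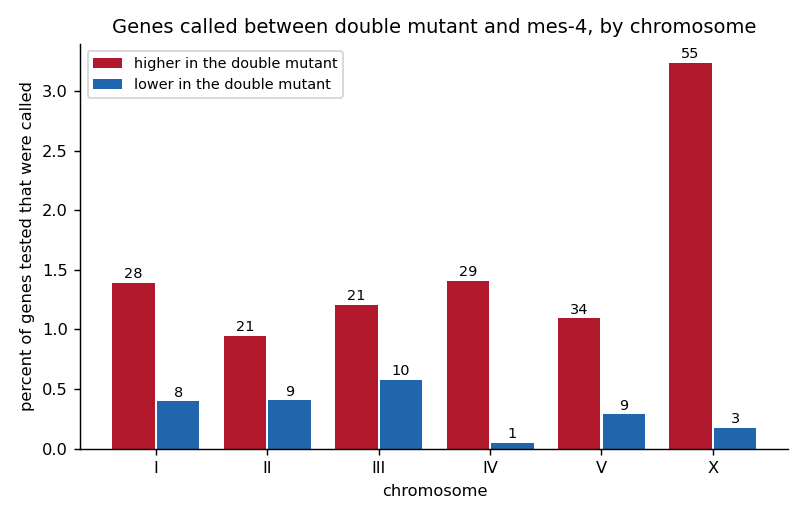
Percent of the genes tested on each chromosome that were called higher (red, left bar) or lower (blue, right bar) in the double mutant than in mes-4, with the number of genes above each bar. X reached 3.23% for higher calls, and chromosome IV had 1 lower call.

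The X-linked genes that rose were mostly genes already above wild type in mes-4. The mean of mes-4 was above 0 for 49 of the 55 and above 0.5 for 45, with medians of 2.28 in the double mutant and 0.82 in mes-4. Of the 133 autosomal genes called higher, 73 had a mes-4 mean above 0 and 31 above 0.5, with medians of 1.1 in the double mutant and 0.08 in mes-4. Among all X-linked and all autosomal genes tested, 64.6% and 47.4% had a mes-4 mean above 0, and 17.9% and 2.6% one above 0.5. The chromosomes thus differed in mes-4 over all genes as well, and no test set the called genes against these shares. In mes-2, on arrays of their own, the medians of the X-linked and autosomal genes were 0.29 and 0.22. The mes-2 mean was above the mes-4 mean for 7 of the 55 X-linked genes and for 87 of the 133 autosomal genes. Over all genes tested this held for 613 of 1702 X-linked and 5735 of 11136 autosomal genes. Calling a gene higher than in mes-4 uses the same mes-4 values, so these counts only describe the called genes.

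Of the X-linked genes above wild type in mes-4, bra-1, vem-1 and egl-6 are given here. bra-1 and egl-6 had been listed as leaders of mes-4 and of the double mutant in earlier results, so their height in both groups was known beforehand. ttr-6 and flr-4, given below, had larger differences and mes-4 means below 0. bra-1, a gene for a protein that binds a BMP receptor, had 3.71, 4.17, 4.83 and 3.99 in the double mutant, against 1.84, 1.74, 2.3 and 3.07 in mes-4. The lowest double mutant array was above the highest mes-4 array, and the difference was 1.94 (SE 0.295, adjusted p = 0.00911). vem-1, which encodes a membrane-associated steroid-binding protein homolog that acts in axon guidance, had 1.81, 3.86, 3.14 and 2.38 in the double mutant, against 0.53, 0.40, 1.39 and 1.18 in mes-4. These groups did not overlap either, and the difference was 1.92 (SE 0.324, adjusted p = 0.0162). egl-6, a neuropeptide receptor gene that acts in egg laying, had 2.74, 4.46, 5.02 and 3.8 in the double mutant, against 1.74, 1.86, 1.68 and 2.74 in mes-4. Its groups met at 2.74 and its difference was 2.00 (SE 0.416, adjusted p = 0.0395).

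ttr-6 and flr-4 were near or below wild type in mes-4. ttr-6, of the transthyretin-related family, had 2.90, 1.57, 2.61 and 2.08 in the double mutant, against -0.67, -0.63 and -0.06 on the 3 mes-4 arrays with a value. The groups lay on opposite sides of 0, with a fitted difference of 2.91 (SE 0.535, adjusted p = 0.0296). The family, compared because ttr-6 was called, had 3 of 37 measured members higher and 0 lower, against 1.46% and 0.318% of all genes. flr-4, a protein kinase gene that acts in the defecation rhythm, had 1.72, 1.81, 3.11 and 2.08 in the double mutant, against -0.10, -0.50, 0.59 and -0.04 in mes-4. All 4 double mutant arrays were more than 2-fold over wild type and none of the mes-4 arrays was, with a difference of 2.19 (SE 0.344, adjusted p = 0.011). Other X-linked genes were above wild type in both groups. Y26E6A.2, for which no function was given in the tables used here, had means of 3.52 in the double mutant and 1.17 in mes-4, a difference of 2.35 (adjusted p = 0.00196). dhhc-10, a palmitoyltransferase gene, had 2.83, 4.80 and 3.84 on the 3 double mutant arrays with a value, against 1.24, 1.52, 2.08 and 1.98 in mes-4, with a fitted difference of 1.98 (SE 0.375, adjusted p = 0.0317). Its groups were apart, as were those of the lysosomal membrane protein gene lmp-1, which differed by 1.47, and of vhl-1, the von Hippel-Lindau gene, which differed by 1.08 (adjusted p = 0.00196 and 0.00815).

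The 3 X-linked genes that fell were nkat-1, slcr-46.1 and npr-28. nkat-1, a kynurenine aminotransferase gene, had -1.47, -1.42, -2.36 and -1.45 in the double mutant, against -0.55, 0.00, -0.41 and -0.24 in mes-4, a difference of -1.38 (SE 0.295, adjusted p = 0.0443). Every double mutant array was below every mes-4 array. slcr-46.1 differed by -1.06 and npr-28, a neuropeptide receptor gene, by -0.58 (adjusted p = 0.0317 and 0.0326).

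X as a whole did not separate the mutants by its median. The median of X-linked genes minus that of autosomal genes was 0.17, 0.03, 0.31 and 0.085 in the double mutant, against 0.23, 0.198, 0.10 and 0.03 in mes-4. The groups overlapped, and their means differed by 0.01 (two-sided exact permutation test of 4 against 4 arrays, p = 0.971). X was above the autosomes on all 8 arrays. Means over genes in place of medians gave a difference of 0.11 (exact permutation p = 0.2), so neither summary passed the test, and a p of this size does not show that X was alike in the mutants.

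The share of genes far from wild type was a further measure per array, added after the data were seen. Of autosomal genes, 4.21%, 4.25%, 4.24% and 6.10% had a log2 ratio above 1 on the double mutant arrays, against 1.15%, 1.22%, 2.28% and 1.62% on the mes-4 arrays. The lowest double mutant array was above the highest mes-4 array, and the means were 4.70% ± 0.935 and 1.56% ± 0.517 (SD, n = 4 each). The exact permutation p was 0.0286, the smallest that 4 against 4 arrays can give, and 0.114 after adjustment over the 4 shares examined, so the difference did not pass the correction. After the arrays were scaled to equal spread the ranges overlapped, at 2.42% to 3.8% in the double mutant and 1.60% to 2.72% in mes-4 (exact permutation p = 0.0857). The mes-2 arrays had 3.37% to 4.36%.

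Of X-linked genes, 9.79%, 16.2%, 18.9% and 14.4% were above 1 on the double mutant arrays, against 7.64%, 7.97%, 9.94% and 11.6% on the mes-4 arrays. The groups overlapped, because double mutant replicate 1 was below 2 of the mes-4 arrays (exact permutation p = 0.0857, adjusted p = 0.152). The share of X-linked genes was higher than that of autosomal genes on every array of both groups. The mes-2 arrays had 4.70% to 5.76%. Below -1, the autosomal share averaged 4.52% ± 2.35 in the double mutant and 2.10% ± 0.946 in mes-4 (SD, n = 4 each, exact permutation p = 0.114), and the X-linked share 1.83% ± 0.897 and 1.51% ± 0.925 (exact permutation p = 0.543).

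**Figure D3:**
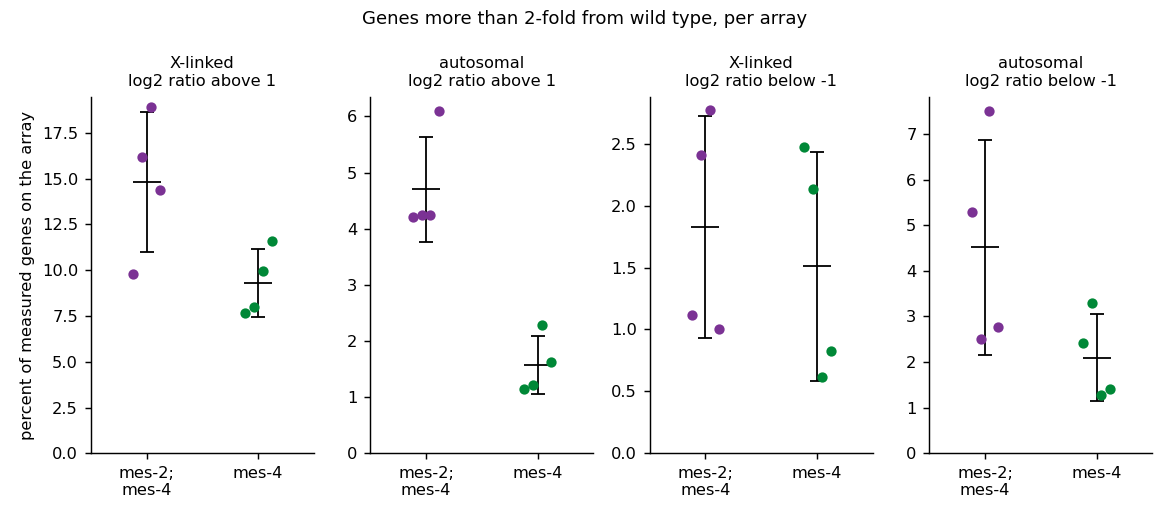
Percent of measured genes on each array with a log2 ratio above 1 (left pair of panels) or below -1 (right pair), for X-linked and autosomal genes, with points for the 4 double mutant and 4 mes-4 arrays and bars for mean and SD. Each panel has its own scale from 0; the autosomal share above 1 is between 4.21% and 6.10% in the double mutant, above all mes-4 arrays.

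Genes of energy metabolism included several X-linked members that rose while their autosomal counterparts were not called higher. Other X-linked members of the same families were not called either. Of 41 measured mitochondrial respiratory genes 3 were higher and 1 lower, against 1.46% and 0.318% of all genes, with a list median of 0.37. The medians of the list overlapped between the groups, at 0.55, 0.16, -0.17 and 0.79 in the double mutant and -0.16, -0.22, 0.50 and 0.05 in mes-4, and were highest on replicates 1 and 4 of the double mutant and replicate 3 of mes-4. asb-2, an X-linked gene for subunit b of ATP synthase, had 2.32, 3.59, 3.1 and 3.19 in the double mutant, against 1.08, 1.29, 1.42 and 1.93 in mes-4. The groups were apart by a difference of 1.62 (SE 0.231, adjusted p = 0.00703). Its counterpart asb-1 on chromosome III had 0.49, -0.32, -0.13 and 0.12 in the double mutant, against 0.25, -0.12, 0.48 and -0.18 in mes-4, which overlapped (difference -0.07, adjusted p = 0.958).

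asg-2, an X-linked gene for subunit g, had 2.56, 2.74, 2.24 and 2.96 in the double mutant, against 0.53, 0.61, 1.25 and 1.32 in mes-4, a difference of 1.70 (SE 0.158, adjusted p = 0.000758). All double mutant arrays were higher, while the autosomal asg-1 had a difference of 0.47 (adjusted p = 0.644). mai-1, the X-linked gene for an ATPase inhibitor, had 3.48, 2.91, 1.05 and 3.46 in the double mutant, against 0.40, 0.37, 1.07 and 1.25 in mes-4. Replicate 3 of the double mutant overlapped with mes-4 and the other 3 did not, with a difference of 1.95 (SE 0.409, adjusted p = 0.0406), and autosomal mai-2 had 0.46 (adjusted p = 0.683).

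For the core subunit of cytochrome bc1 the 2 called genes went opposite ways. Of 4 measured ucr genes 1 was higher and 1 lower, against 1.46% and 0.318% of all genes. The autosomal ucr-1 and ucr-11 had -0.22 and 0.882 and were not called (adjusted p = 0.603 and 0.337). ucr-2.2 on X had 1.55, 1.11, 2.59 and 1.51 in the double mutant, against 0.62, 0.59, 0.58 and 0.59 in mes-4. ucr-2.3 on chromosome III had -0.79, -0.68, -1.36 and -0.50 in the double mutant, against -0.17, -0.19, 0.05 and 0.05 in mes-4. Neither gene had overlapping groups, and the differences were 1.09 for ucr-2.2 and -0.77 for ucr-2.3 (SE 0.233 and 0.144, adjusted p = 0.0428 and 0.0264). aakb-1 on X, a beta subunit gene of the energy sensor AMPK, rose by 0.90 (SE 0.116, adjusted p = 0.0038), with 1.42 to 1.95 in the double mutant and 0.65 to 1.02 in mes-4, and aakb-2 on chromosome III had -0.24 (adjusted p = 0.703). aakb-1 was the only called gene of 5 measured AMPK subunit genes, of which 3 were X-linked. The X-linked aakg-2 and aakg-3 had 0.487 and -0.355 (adjusted p = 0.449 and 0.29). Among other X-linked metabolic genes, gpd-3, for the glycolytic enzyme GAPDH, rose by 1.55 and idh-2, for isocitrate dehydrogenase, by 1.32 (adjusted p = 0.00645 and 0.0439). gpd-2, also an X-linked GAPDH gene, had 0.693 and was not called (adjusted p = 0.214). The pairs were put together after the values were seen, and the difference between the 2 genes of a pair was not tested.

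Genes of protein turnover included skr-3, which had the lowest adjusted p of all genes tested. Of 15 measured Skp1-related genes, which encode adaptors of SCF ubiquitin ligases, skr-3, skr-4, skr-16 and skr-20 rose and 0 fell. Over all genes, 1.46% were higher and 0.318% lower. The family was compared because skr-3 and skr-16 were among the highest calls, so its count only describes it. skr-3 had 2.53, 3.2, 2.66 and 3.03 in the double mutant, against 0.575, 0.27, 1.35 and 1.115 in mes-4, a difference of 2.03 (SE 0.126, adjusted p = 9.62e-05). skr-16 had 2.79, 3.00, 3.05 and 3.15 in the double mutant, against 0.74, 0.43, 1.48 and 1.36 in mes-4, a difference of 2.00 (SE 0.156, adjusted p = 0.000346). Both genes had more than 1 log2 unit between the highest mes-4 array and the lowest double mutant array. Their means in mes-2 were 0.593 and 0.718. skr-4 rose by 1.41 and X-linked skr-20 by 1.39 (adjusted p = 0.0116 and 0.0357), whereas skr-1, the family member used widely in development, had 0.48 (adjusted p = 0.261). The genes lie on chromosomes IV, V and X, and probes for similar family members can cross-hybridise.

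F-box proteins, the substrate receptors of these ligases, had 3 of 202 measured genes higher and 0 lower, with a median of -0.02. That share of 1.49% was near the 1.46% of all genes called higher. fbxa-192 had 0.21, 0.25, 0.23 and 0.41 in the double mutant, against -1.43, -1.63, -1.08 and -1.08 in mes-4, a difference of 1.58 (SE 0.226, adjusted p = 0.00703). It lay below wild type in mes-4 and slightly above it in the double mutant, and its mean in mes-2 was -2.56. fbxa-64 and fbxa-65 were above wild type in both groups and rose by 0.83 and 0.76 (adjusted p = 0.0163 and 0.0303). bath-39, of the MATH and BTB family that also serves ubiquitin ligases, rose by 1.99 (SE 0.273, adjusted p = 0.0053), with 1.78 to 3.49 in the double mutant and 0.50 to 1.43 in mes-4. bath-39 was the 1 called gene of 67 measured in that family, a share of 1.49% against 1.78% of all genes. ulp-5, a SUMO protease gene, was below wild type in both groups, at -0.70, -1.14, -1.33 and -0.70 in the double mutant and -2.17, -2.26, -1.61 and -1.92 in mes-4, a difference of 1.02 (SE 0.177, adjusted p = 0.0184).

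The highest difference among called genes was that of tbb-6, a beta-tubulin gene, with 3.40, 6.10, 8.54 and 4.74 in the double mutant, against 1.13, 0.40, 1.23 and 2.24 in mes-4. The groups were apart, although the double mutant arrays differed among themselves by several log2 units, and the difference was 4.45 (SE 0.877, adjusted p = 0.0314). tbb-6 was called in 10 of the 22 alternatives, with differences of 2.82 to 6.04. The other 3 measured beta-tubulin genes tbb-1, tbb-2 and tbb-4 had -0.17, -0.25 and -0.20 (adjusted p = 0.904, 0.653 and 0.602). aly-1, a homolog of the mRNA export factor ALY, had 3.71, 3.53, 2.84 and 3.58 in the double mutant, against 0.50, 0.32, 1.48 and 1.55 in mes-4, a difference of 2.45 (SE 0.266, adjusted p = 0.00185). These groups were far apart. The mean of aly-1 in mes-2 was -0.61, and its paralogs aly-2 and aly-3 had differences of 0.45 and 0.04 (adjusted p = 0.581 and 0.971).

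Detoxification genes of the cyp, ugt and gst families had 3 of 121 members higher and 0 lower, with a median of 0.09. That was 2.48%, against 1.46% of all genes called higher. gst-38, a glutathione S-transferase gene, had 3.45, 4.70 and 4.06 on the 3 double mutant arrays with a value, against 0.60, 0.94, -0.20 and -0.55 in mes-4. The groups were apart, with a difference of 3.91 (SE 0.428, adjusted p = 0.0026). The cytochrome P450 gene cyp-33C8 and the X-linked gst-36 rose by 1.28 and 1.14 (adjusted p = 0.0107 and 0.0406). msra-1, whose product repairs oxidised methionine, rose by 1.87 (SE 0.191, adjusted p = 0.00159), and double mutant arrays ran from 1.39 to 2.99 while mes-4 arrays ran from -0.18 to 0.86. In mes-2 the means of gst-38, cyp-33C8 and msra-1 were 0.263, 0.163 and 1.15.

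Among regulators of transcription and signalling, 1 or a few genes of a family rose. nhr-107 was the 1 called gene of 173 measured nuclear hormone receptors, with 2.83, 2.84, 4.08 and 2.47 in the double mutant, against -0.09, 0.17, 0.86 and 0.68 in mes-4, a difference of 2.65 (SE 0.34, adjusted p = 0.0038). The lowest double mutant array was more than 1 log2 unit above the highest mes-4 array. taf-11.3, of the family of TFIID subunit TAF11, had 1.43, 1.97, 1.69 and 1.62 in the double mutant, against -0.43, -0.54, 0.49 and -0.02 in mes-4, a difference of 1.80 (SE 0.168, adjusted p = 0.000758). rom-1, a rhomboid protease gene, rose by 1.88 and pqn-89, for a protein with a prion-like domain, by 2.12 (adjusted p = 0.00196 and 0.0194). In mes-2 the means of nhr-107, taf-11.3, rom-1 and pqn-89 were 0.555, -0.128, 1.2 and 0.912. No homeobox gene of 68 and no gene of 57 in the basic helix-loop-helix, T-box, forkhead and GATA list was called, with median differences of 0.01 and -0.01. At an unadjusted p under 0.05, 1628 of all 12887 genes differed (12.6%).

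Genes of membrane traffic and acidification, picked after their values were seen, were among those that rose. rab-7, a GTPase of late endosomes, had 0.34, 0.18, 0.50 and 0.39 in the double mutant, against -0.28, -0.25, -0.22 and -0.30 in mes-4. Each group was tight and on its own side of 0, with a difference of 0.62 (SE 0.12, adjusted p = 0.0303). rab-11.1, of recycling endosomes, rose by 1.03 and X-linked rab-14 by 0.91 (adjusted p = 0.0288 and 0.0091). Thus 3 of 18 measured rab genes were higher and 0 lower, against 1.46% and 0.318% of all genes. Of 20 genes of the vacuolar proton pump, vha-20 on X and vha-8 on IV rose, by 1.40 and 0.61 (adjusted p = 0.0045 and 0.0203). sid-5, an X-linked gene for an endosomal protein needed for the spread of RNA interference, had 1.71, 1.94, 1.83 and 3.07 in the double mutant, against 0.21, -0.12, 1.3 and 0.58 in mes-4, a difference of 1.65 (SE 0.243, adjusted p = 0.0084). The groups were apart.

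Among chromatin genes few passed the test. his-8, a histone H2B gene, had 1.52, 1.73, 2.06 and 1.80 in the double mutant, against 0.53, 0.39, 1.13 and 0.71 in mes-4, a difference of 1.09 (SE 0.193, adjusted p = 0.0204). Its groups did not overlap, and it was the 1 called gene of 35 measured histone genes, of which 31 had a difference above 0, with a median of 0.36. Copies of histone genes are similar enough for probes to cross-hybridise, and the per-array medians of the list overlapped, at 0.80, 0.48, 0.23 and 1.04 in the double mutant and 0.12, -0.08, 0.87 and 0.27 in mes-4. cec-4, whose chromodomain protein anchors heterochromatin at the nuclear edge, rose by 0.68 (SE 0.131, adjusted p = 0.0301). None of 34 other histone methyltransferase and demethylase genes, 22 synMuv B and heterochromatin genes or 10 dosage compensation genes was called, with medians of -0.11, -0.05 and -0.07.

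**Figure D4:**
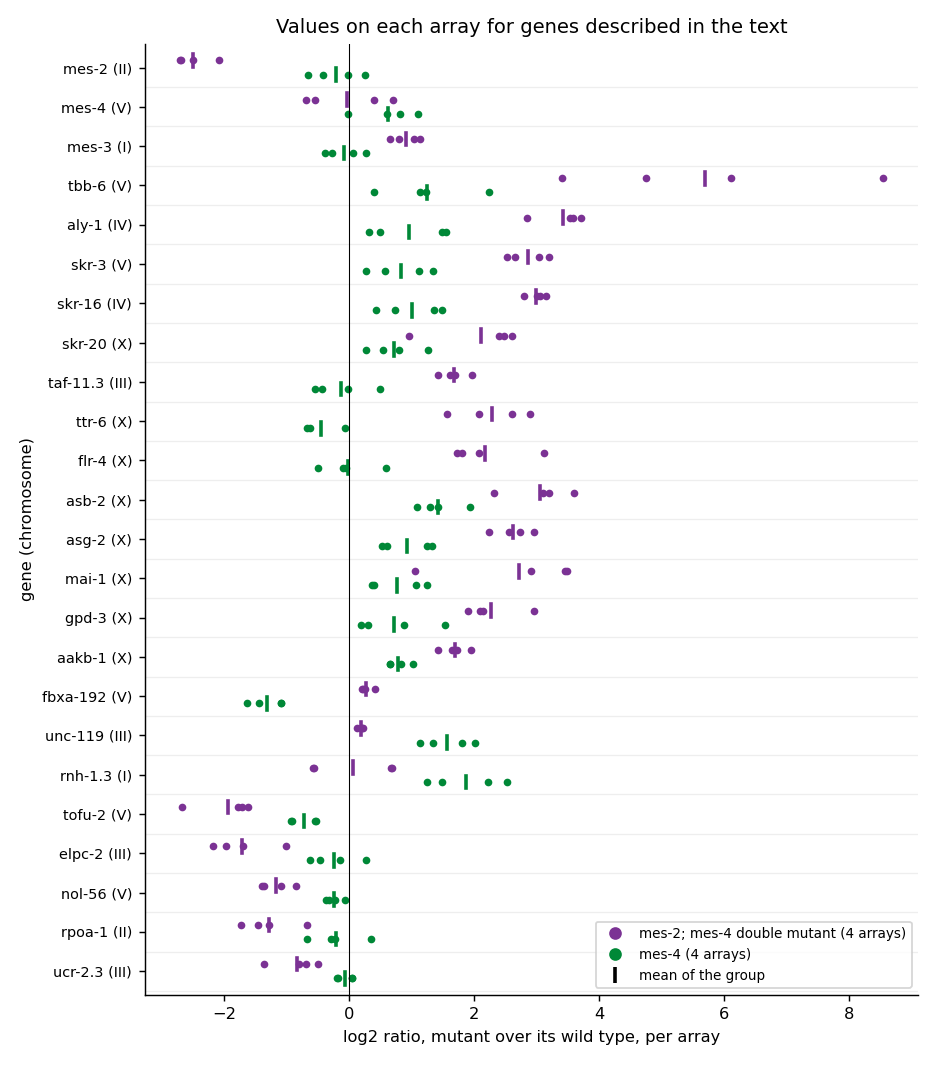
Log2 ratio over its own wild type for 24 genes described in the text, with a point per array, the double mutant (purple) above mes-4 (green) and a bar at each mean. unc-119 and rnh-1.3 are high in mes-4. In the double mutant unc-119 is near 0, rnh-1.3 has arrays on both sides of 0, and tbb-6 spans 3.40 to 8.54.

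By group means, unc-119, rnh-1.3 and F15D4.5 were high in mes-4 and near wild type in the double mutant. The product of unc-119 carries lipid-modified proteins in neurons, and unc-119 was the 1 called gene of 39 in the neuronal and synaptic list. unc-119 had 0.13, 0.21, 0.23 and 0.19 in the double mutant, against 1.35, 1.13, 2.01 and 1.80 in mes-4, a difference of -1.38 (SE 0.175, adjusted p = 0.0038). The double mutant arrays lay close together and the groups were apart, and the mes-2 mean was -0.01. rnh-1.3, of the ribonuclease H family, had 0.69, -0.58, -0.56 and 0.68 in the double mutant, against 1.49, 1.24, 2.23 and 2.52 in mes-4, a difference of -1.81 (SE 0.34, adjusted p = 0.0264). The groups of rnh-1.3 were apart, and its mean in mes-2 was -1.77. Its double mutant mean of 0.06 averages replicates 1 and 4 above 0 with replicates 2 and 3 below it, and no array lay near that mean. F15D4.5 had means of 0.12 in the double mutant and 1.61 in mes-4, a difference of -1.50 (adjusted p = 0.00868).

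Among the others that fell were tofu-2 and pid-4, of the piRNA pathway. tofu-2, which encodes a nuclease subunit that trims piRNA precursors, had -1.71, -1.77, -2.66 and -1.61 in the double mutant, against -0.92, -0.91, -0.52 and -0.54 in mes-4, a difference of -1.22 (SE 0.18, adjusted p = 0.0084). pid-4, also of the piRNA pathway, had -1.36, -1.07, -1.25 and -1.26 in the double mutant, against -0.55, -0.49, -0.54 and -0.38 in mes-4, a difference of -0.75 (SE 0.134, adjusted p = 0.022). Both genes were below wild type on every array of both groups, and neither had overlapping groups. They were the 2 lower genes of 12 measured under the names tofu, pid and prg, with 0 higher, against 0.318% and 1.46% of all genes. That set was compared because of these calls, so its count only describes it. Uncalled members went both ways, such as prg-1 at -0.713 and pid-1 at 0.69 (adjusted p = 0.495 and 0.337). The list of Argonaute and small RNA genes, which does not hold pid-4, had 1 of 52 members higher, which was sid-5, and 1 lower, which was tofu-2, with 44 below 0 and a median of -0.17. The median over all genes was 0.01. The list's medians per array overlapped, from -0.59 to 0.205 in the double mutant and from -0.253 to 0.305 in mes-4.

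Ribosome production was represented by 4 lower genes of 15 measured under the names rpoa, nol, fib, dkc, grwd and nst, a set put together after the values were seen, while 0.318% of all genes were lower. nol-56, of the box C/D ribonucleoprotein, had -1.39, -0.85, -1.36 and -1.09 in the double mutant, against -0.37, -0.07, -0.32 and -0.22 in mes-4, a difference of -0.93 (SE 0.183, adjusted p = 0.0314). rpoa-1, the largest subunit gene of RNA polymerase I, had -1.72, -0.67, -1.28 and -1.46 in the double mutant, against -0.67, -0.23, -0.29 and 0.35 in mes-4, a difference of -1.07 (SE 0.234, adjusted p = 0.0479). rpoa-1 met between the groups at -0.67, while nol-56 did not overlap. dkc-1, the dyskerin gene, fell by 0.67 and grwd-1, a ribosome assembly gene, by 0.71 (adjusted p = 0.0408 and 0.0263). No gene of the set was higher, and fib-1, the fibrillarin gene, had -0.57 (adjusted p = 0.204). Of 68 ribosomal protein genes 0 were called, with a median of 0.17. With 1.46% of all genes higher and 0.318% lower, 0 calls in such a list is no contrast with the set. The list's array medians overlapped, at 0.285, -0.04, -0.345 and 0.49 in the double mutant and 0.18, -0.41, 0.26 and -0.20 in mes-4.

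elpc-2, a subunit gene of the Elongator complex, had -1.96, -1.01, -1.70 and -2.17 in the double mutant, against -0.47, -0.14, -0.63 and 0.28 in mes-4, a difference of -1.47 (SE 0.269, adjusted p = 0.0238). lin-25, a Mediator subunit gene, had -1.27, -0.53, -0.67 and -1.48 in the double mutant, against 0.30, 0.71, -0.30 and 0.88 in mes-4, a difference of -1.39 (SE 0.301, adjusted p = 0.0474). Neither gene had overlapping groups. The initiation factor gene eif-3.H fell by 0.70, the mitochondrial processing peptidase gene mppa-1 by 0.75, rog-1, which acts on Ras signalling in the germ line, by 0.75, and the replication origin gene orc-3 by 0.56 (adjusted p = 0.0173, 0.0118, 0.0314 and 0.0422). orc-3 was the 1 called gene of 78 cell cycle genes, whose median was -0.15. Among large receptor and lectin families, str-187 was higher and srd-4 lower of 760 chemosensory receptor genes, and clec-3 and clec-174 were lower of 147 C-type lectin genes. Their differences were 0.64, -0.54, -0.54 and -0.55 (adjusted p = 0.0437, 0.0404, 0.0479 and 0.0406).

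Germline lists gave 0 called genes. With 1.78% of all genes called, lists of this size would hold few calls, so 0 does not show that they were unchanged. The lists were the meiotic chromosome genes (41 measured, median -0.13), cohesin and condensin genes (16, -0.29), P granule genes (15, -0.17), germline RNA regulators (27, -0.06), and oocyte and eggshell genes (20, -0.17). In that order, 26, 15, 10, 15 and 14 of their genes had a difference below 0. The array medians of each list overlapped between the groups. The meiotic cohesin gene rec-8 had -1.74, -0.45, -1.35 and -1.54 in the double mutant, against -0.30, 0.05, -0.61 and 0.54 in mes-4. The groups overlapped, and the difference of -1.19 did not pass (SE 0.285, adjusted p = 0.0689). coh-1, an X-linked cohesin gene, had 2.41, 4.16, 5.23 and 3.29 in the double mutant, against 1.45, 1.73, 1.66 and 2.71 in mes-4, a difference of 1.89 that did not pass either (SE 0.51, adjusted p = 0.108). Its groups also overlapped.

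Markers of other cells that a dissection can carry also gave 0 called genes, apart from unc-119 in the neuronal list. The intestinal list (36 measured, 25 with a difference above 0) had a median difference of 0.28, with array medians of 0.305, -0.07, -0.12 and 0.10 in the double mutant and -0.56, -0.605, -0.15 and -0.19 in mes-4. Its array medians were apart only narrowly, at -0.12 against -0.15, and those of mes-4 were all below 0. No other of the 43 lists had array medians apart. With that many lists looked at and no test made, the separation only describes this list. The collagen and cuticle list (121 measured, 90 above 0) had a median difference of 0.18, with array medians of -0.33 to 0.22 in the double mutant and -0.27 to -0.145 in mes-4, which overlapped. Muscle, gonadal sheath and early embryonic lists (30, 10 and 37 measured) had medians of 0.03, -0.05 and 0.06. Major sperm protein genes (27 measured, median difference -0.06) had array medians of 0.38, -0.70, -1.68 and 0.45 in the double mutant and -0.335, -0.76, 0.40 and -0.57 in mes-4, so double mutant replicates differed among themselves by more than 2 log2 units. Ratios to wild type give no level, so no marker can be called absent. Fewer cells of a type and less RNA per cell cannot be told apart in dissected tissue, and the part of these lists in the differences was not tested. Of the 43 lists, 27 had 0 called genes.

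**Figure D5:**
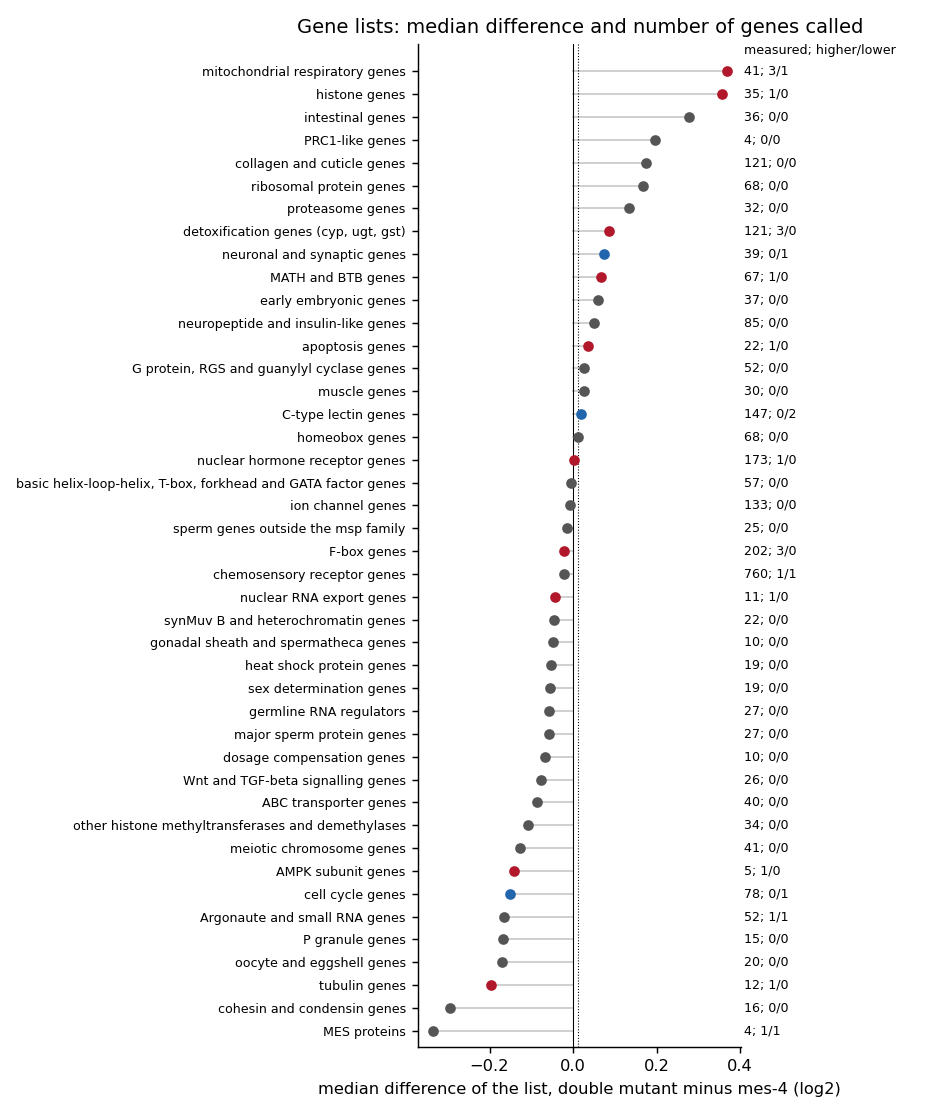
Median difference of the 43 gene lists other than the leaders from earlier results, double mutant minus mes-4, with a dotted line at the median of all genes (0.01); beside each list stand the genes measured and the numbers called higher and lower. Among them the mitochondrial respiratory and histone lists have the highest medians, 0.37 and 0.36, with 3 and 1 genes called higher.

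Several genes with the largest departures in a single mutant were not called between the double mutant and mes-4. Of 13 measured genes that led the mes-2 comparison in earlier results of these data, fbxa-192 was higher and 0 were lower, with a median difference of 0.17. Those not called included the neurexin gene nrx-1 (1.68, adjusted p = 0.293) and the G protein gene gpa-1 (0.98, adjusted p = 0.224). Of 10 genes that led the mes-4 comparison, egl-6, bra-1 and ulp-5 were higher and 0 were lower. Of 10 genes that led the double mutant comparison, 5 were higher (tbb-6, gst-38, aly-1, egl-6 and bra-1) and 1 was lower (tofu-2). Leaders of mes-4 and of the double mutant were picked on values that the difference uses, so these counts only describe them. The mes-2 and double mutant arrays used the same wild-type strain, and whether they shared RNA was not stated, so their values are given side by side only.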

How the data were processed

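Log ratios, 1 for each probe on each array, are the values the authors deposited, read here as log2; per the labels' protocols, RNA was extracted with Trizol, amplified from poly-A RNA and labelled with Cy3 and Cy5. Normalization, spot filters, log base and direction are not given in the sources used here. Of 22490 probes, 17461 named 1 gene through the platform annotation, 0 several and 5029 none, and chromosomes came from a WBcel235 gene table (17371 IDs matched, 90 not). Probes of a gene were averaged. limma 3.58.1 in R 4.3.3 fitted all 12 arrays with group and dye terms, and p-values were adjusted by Benjamini-Hochberg over 12887 genes, two-sided, called under 0.05. Where values are missing, the fitted difference can depart from the difference of means. The fit was tested on simulated data. Values per array were compared by exact permutation tests. Arrays give no read depth, and the number of arrays limits the precision.

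Comparisons, members and lists were chosen with earlier results of these data known. Named genes were mes-2, mes-4, the 12 most raised and 12 most lowered called genes that had a standard symbol and groups apart on 8 arrays, up to 2 called genes per list and direction, the 5 X-linked called genes each way, leaders from earlier results, and paralogs; other called genes were picked after their values were seen. Replicate numbers did not pair the arrays: residuals of same-numbered double mutant and mes-4 arrays correlated at -0.0395, 0.54, -0.471 and -0.473. The 3 arrays left out together were those whose residuals moved together across the groups.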

Additional observations from a re-analysis of the deposited data

Results flagged for a closer look

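In 8 of 152 groups of 4 arrays examined, 1 array lay far from the other 3, with a gap to its nearest neighbour past Dixon's critical value. Chance alone does this in about 1 in 20 groups. Among double mutant arrays, nkat-1 had -2.36 on replicate 3 against -1.47 to -1.42 on the others, tofu-2 had -2.66 on replicate 3 against -1.77 to -1.61, and sid-5 had 3.07 on replicate 4 against 1.71 to 1.94. The share of autosomal genes with a log2 ratio above 1 was 6.10% on double mutant replicate 4 against 4.21% to 4.25%. Among mes-4 arrays the outlying value was on replicate 4 each time. There mppa-1 had -0.03 against -0.26 to -0.24, phf-14 had 0.44 against 0.03 to 0.08, egl-6 had 2.74 against 1.68 to 1.86, and apm-3 had 2.69 against 1.61 to 1.72.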

How the results depend on the processing

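All 229 called genes kept their direction in each of the 22 alternatives in which they were tested, but their number moved, and 0 of 47 named genes kept their call in all of them. Calls (higher and lower) were 67 (60 and 7) without the dye term, 85 (79 and 6) with only the 8 arrays of the comparison, and 94 (82 and 12) after scaling arrays to equal spread. They were 101 (88 and 13) with a replicate block in the dye fit, although the numbers do not pair the arrays. Array weights gave 2369 (1393 and 976), with 12.9% of higher genes on X, and a threshold of 1.5-fold gave 22 (21 and 1). Arrays of only Cy5 or only Cy3 orientation, 2 per group, gave 0 (0 and 0) with limma, and 690 and 1112 genes at an unadjusted p under 0.05. Without replicates 1 and 4 of the double mutant and replicate 3 of mes-4 calls numbered 382, with 119 lower and 44.9% of higher genes on X. Without double mutant replicates 2 and 3 they numbered 1181 (810 and 371), with 12.4% on X. Leaving out 1 array at a time gave 75 to 258 calls, 69 to 216 higher and 6 to 61 lower. Filters on missing values, single-probe genes and the robust variance model gave 219 to 225. The cause of these shifts was not tested. By means over genes, the chromosome II difference was -0.0359, at an exact permutation p of 0.0286, the smallest possible, and 0.172 after adjustment over the 6 chromosomes. After scaling, the share of genes above 1 differed by 1.56 points on X and 1.06 on autosomes, and the share below -1 by 0.347 on autosomes and -0.613 on X, which turned its sign, as it did within Cy3 arrays (-0.353).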

Other observations

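Probes with no gene name were tested apart. Of 4027 such probes 15 (0.372%) were called between the double mutant and mes-4, 6 higher and 9 lower. C07G1.7 and T27E4.1, for which no function was given in the tables used here, had the highest differences after tbb-6 and gst-38, at 3.40 and 3.04 (adjusted p = 0.0291 and 0.00911). C07G1.7 had means of 3.42 in the double mutant, -0.17 in mes-4 and 2.96 in mes-2, and T27E4.1 had 3.67, 0.58 and 2.90. F56A4.3 was far below wild type in mes-4, at -3.18, and less so in the double mutant, at -0.69, a difference of 2.49 (adjusted p = 0.0136). C10C6.7 had 0.21 in the double mutant, -1.42 in mes-4 and 3.19 in mes-2 (difference 1.62, adjusted p = 0.0252). These genes were chosen after their values were seen.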
